A study of Mus musculus with 17 samples.

Results

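The 10 genes described here, Cd3d, Cd3e, Cd3g, Cd4, Cd8a, Lck, Zap70, Nkg7, Gzma and Klrd1, are genes by which T cells and natural killer (NK) cells are recognised. They were chosen by name from a table of 35285 genes in mouse cochlear RNA, and all 10 were in it. The table held 17 libraries from 17 wild-type (WT) male C57BL/6J mice, 8 weeks old, sampled on day 2 after noise exposure (NE). The control group (n = 3) had no noise and received saline by intraperitoneal injection. The NE group (n = 7) was exposed to noise of 8 to 16 kHz at 100 dB for 2 h. The brimonidine group (n = 7) had the same noise and brimonidine, which activates α2-adrenergic receptors, at 1 mg/kg by 3 intraperitoneal injections. By the methods these fell on the day before, the day of and the day after exposure, whereas the labels place them before the noise. The methods give the saline regimen for the control group, and no library came from a mouse with brimonidine alone. C57BL/6J carries a Cdh23 allele that brings early hearing loss.

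T cells recognise antigen through a receptor whose variable chains are held in the membrane by the CD3 chains, which carry the signal inwards. CD4 and CD8 bind the presenting molecule beside the receptor and bring the kinase Lck to the CD3 chains, where it phosphorylates them, and the kinase Zap70 then docks there. NK cells and cytotoxic T cells kill through granules that hold granzymes and perforin, and NK cells read their targets through lectin-like receptors such as the Klrd1 (CD94) heterodimers. In the normal inner ear lymphocytes are few, and the bony capsule around it holds marrow, where blood cells of many kinds are formed.

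Libraries held between 14457733 and 18288854 fragments, and values are FPKM, fragments per kilobase of exon scaled to the depth of the library. FPKM is already divided by gene length, so levels of different genes can be set side by side. Neutrophil genes were far above those of hair cells. The summed FPKM of 12 neutrophil markers lay between 39879 and 65238 in the exposed libraries, whereas 8 hair-cell markers summed to between 13.7 and 31.5 over all 17. The labels call the source cochlear cells and the cell type interstitial cells. Control 2 stood apart, with a neutrophil sum of 9867 against 43919.7 and 46330.1 in controls 1 and 3, and the neutrophil difference moves with Nkg7 below. The 3 controls also held more transcripts of central neurons, a sum over 10 markers of 269.5, 731.0 and 280.9 in controls 1, 2 and 3 against 31.2 to 48.6 in the NE group. No marker of any of these lists was under 0.1 FPKM in every library. In whole-tissue RNA, fewer cells of a type and less RNA per cell cannot be told apart.

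Of the 10 genes, Nkg7 alone was abundant. Its median over the 17 libraries was 90.3 FPKM, against 3.18 for Gzma, the next in order, and the lowest Nkg7 library lay above the highest library of every other member. Behind Gzma came Cd4 at 2.83, Klrd1 at 2.74, Lck at 2.60, Cd3d at 1.56, Cd3g at 1.39, Zap70 at 1.35, Cd8a at 1.14 and Cd3e at 0.699. Below Nkg7 the ranges of neighbours in this order overlapped in every case. Cd4 was above Klrd1 in only 7 of the 17 libraries, and Gzma was above Cd4 in 12. The step from Lck to Cd3d held in 17 of 17. Recovered from the FPKM values, the fragments behind Nkg7 numbered 362 to 1816 per library. For the other members they ran from 18 to 277, so a member with few fragments had a wide counting error in each library.

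**Figure D1:**
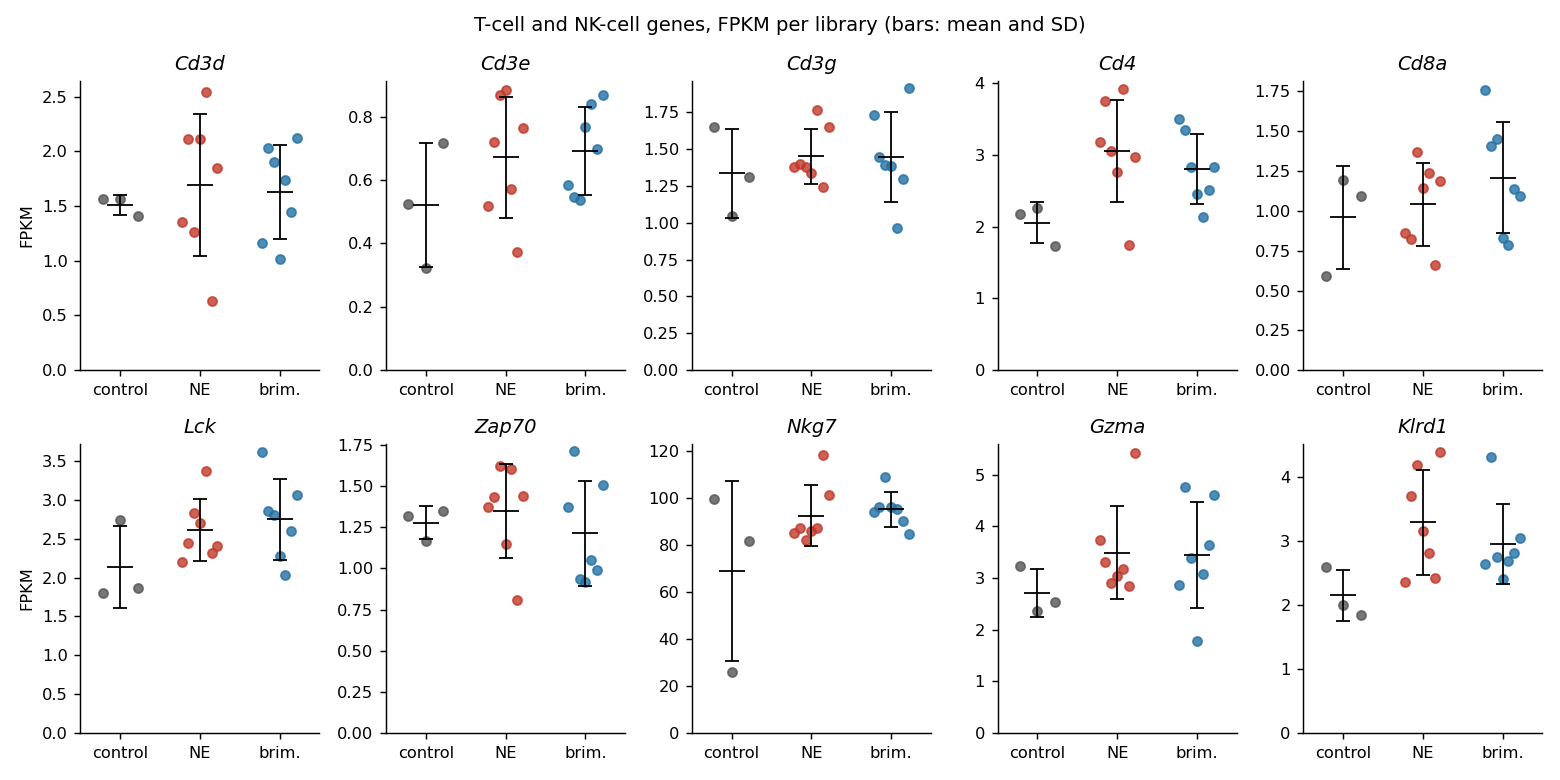
FPKM (linear axes, each starting at 0) of the 10 T-cell and NK-cell genes in control (grey, n = 3), NE (red, n = 7) and brimonidine (blue, n = 7) libraries; bars give the mean and SD. The groups overlap for every gene, and control 2, at 26.1 FPKM, lies apart from the other libraries for Nkg7.

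The sequences just upstream of 4 members are shown because Lck had its highest correlations between libraries with Cd8a and Cd3g. The values of Nkg7 with Lck, Cd8a and Cd3g were negative, at r = -0.28, -0.21 and -0.26, and -0.20, 0.12 and -0.12 without NE 6. None of these correlations was past the threshold after adjustment. They come from RefSeq promoter windows on GRCm38.p6, read 5′ to 3′ on the gene's strand and ending at the base before the start of the gene in the table. Lck lies at chr4:129573642-129573891 on the minus strand, Cd8a at chr6:71373177-71373426 on the plus strand and Cd3g at chr9:44980432-44980681 on the minus strand, each 250 bases. Nkg7 is given for 185 bases at chr7:43436888-43437072 on the plus strand. Capitals mark TGTGGT, the core bound by RUNX factors, and AGGAAG, a core bound by ETS factors, on either strand; both families act in lymphocytes.
Lck: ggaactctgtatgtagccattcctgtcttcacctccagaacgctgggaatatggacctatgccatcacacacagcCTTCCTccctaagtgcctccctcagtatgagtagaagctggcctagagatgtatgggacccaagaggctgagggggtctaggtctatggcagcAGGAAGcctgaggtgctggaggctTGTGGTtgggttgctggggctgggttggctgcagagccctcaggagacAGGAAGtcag
Cd8a: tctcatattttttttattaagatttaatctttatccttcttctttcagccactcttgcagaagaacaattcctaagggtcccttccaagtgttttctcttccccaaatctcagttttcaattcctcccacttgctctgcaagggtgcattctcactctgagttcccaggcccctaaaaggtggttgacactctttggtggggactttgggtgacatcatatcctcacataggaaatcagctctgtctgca
Cd3g: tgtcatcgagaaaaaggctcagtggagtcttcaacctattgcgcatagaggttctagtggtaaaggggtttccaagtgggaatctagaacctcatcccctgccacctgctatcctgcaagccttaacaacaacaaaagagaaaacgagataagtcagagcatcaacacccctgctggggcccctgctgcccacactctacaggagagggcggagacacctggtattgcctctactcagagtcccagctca
Nkg7: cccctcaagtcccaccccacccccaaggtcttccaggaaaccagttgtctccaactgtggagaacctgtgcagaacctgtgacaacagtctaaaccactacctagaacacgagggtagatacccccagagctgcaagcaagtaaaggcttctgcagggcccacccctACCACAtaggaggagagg
The Lck stretch held 1 TGTGGT and 3 AGGAAG, the Nkg7 stretch held 1 TGTGGT, and those of Cd8a and Cd3g held neither. Entries were matched for 8 of the 10 members, 11 in all because Lck and Zap70 had several starts. Over 250 bases before the start, 4 of these 11 held TGTGGT, against 14% of 32851 entries of the same length, and 7 of 11 held AGGAAG, against 29.5%. These are matches of letters, and binding was not measured.

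The CD3 chains were at similar low levels in all 3 groups. Cd3g, Cd3d and Cd3e lie within 40056 bases of chromosome 9, and Cd3g and Cd3d are transcribed away from each other from starts 1354 bases apart. Cd3d, the delta chain (chromosome 9, 44981786 to 44987339), was at 1.56, 1.56 and 1.40 FPKM in the controls. In the NE group it ran from 0.629 through a median of 1.84 to 2.55. The NE libraries lay on both sides of the controls, 4 above the highest and 3 below the lowest. In the brimonidine group its lowest, median and highest values were 1.02, 1.74 and 2.12. For NE against control the log2 fold change on the log2(FPKM + 1) scale was 0.062 (95% interval -0.40 to 0.53, adjusted p = 0.859, limma). The direction turned, to -0.011, without NE replicate 5.

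Cd3g, the gamma chain (chromosome 9, 44969572 to 44980431), was at 1.65, 1.05 and 1.31 FPKM in controls 1, 2 and 3. Its NE libraries ran from 1.24 to 1.76 with a median of 1.38, and the brimonidine libraries from 0.963 to 1.91 with a median of 1.39. The controls spanned most of the NE range, and NE differed from control by 0.073 on the log2 scale (95% interval -0.17 to 0.32, adjusted p = 0.677, limma), which was -0.019 without control 2. Cd3e, the epsilon chain (chromosome 9, 44998740 to 45009627), was under 1 FPKM in every library and was left out of the fit by its filter. It was at 0.526, 0.323 and 0.716 FPKM in the controls. The NE group ran from 0.373 to 0.884 and the brimonidine group from 0.538 to 0.870. For NE against control, an exact two-sided permutation test over the 120 arrangements of 3 and 7 libraries gave p = 0.267 for Cd3e, where the smallest p the design allows is 0.0083.

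Among the coreceptors, Cd4 was higher in most exposed libraries than in any control, and Cd8a was not. Cd4, the coreceptor of helper T cells and also present on some dendritic cells (chromosome 6, 124864692 to 124888221), was at 2.18, 2.25 and 1.73 FPKM in the controls. In the NE group it ran from 1.75 through a median of 3.05 to 3.92, and 6 of the 7 libraries lay above the highest control. The exception was NE 6, at the lowest value. In the brimonidine group it ran from 2.13 through 2.83 to 3.50, again with 6 of 7 above every control. The ratio of the NE and control means was 1.49. The log2 fold change was 0.39 (standard error 0.16, 95% interval 0.03 to 0.75), with an unadjusted p of 0.0351 and an adjusted p of 0.124 (limma), short of the threshold of 0.05. The exact permutation p for Cd4 was 0.0583. Without NE 6 the log2 fold change of Cd4 was 0.48 with an adjusted p of 0.0215 (limma), past that threshold but under the 2-fold minimum, in a range of adjusted p from 0.00139 to 0.292 over its alternatives.

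Cd8a, the alpha chain of the coreceptor of cytotoxic T cells (chromosome 6, 71373427 to 71379173), was at 0.590, 1.20 and 1.09 FPKM in controls 1, 2 and 3. The NE group ran from 0.663 to 1.37, median 1.14, and the brimonidine group from 0.789 to 1.76, median 1.14. The control range covered 5 of the 7 NE libraries, and on the log2 scale NE exceeded control by 0.062 (95% interval -0.27 to 0.39, adjusted p = 0.802, limma). It was -0.082 without control 1. Cd4 exceeded Cd8a in all 17 libraries. The ratio of Cd4 to Cd8a was 3.70, 1.89 and 1.58 in the controls, 2.23 to 4.56 in NE libraries (median 2.63) and 1.95 to 2.96 in brimonidine libraries (median 2.37). The ranges of the ratio overlapped. Exact two-sided permutation tests of its logarithm gave p = 0.25 for NE against control and p = 0.0833 for brimonidine against NE, 2 tests in all.

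Lck, the kinase held by the coreceptors (chromosome 4, 129548344 to 129573641), was at 1.79, 2.74 and 1.87 FPKM in controls 1, 2 and 3. Its NE libraries ran from 2.20 through 2.45 to 3.37 and its brimonidine libraries from 2.04 through 2.81 to 3.62. Control 2 lay inside the exposed range and the other controls below it. NE exceeded control by 0.21 on the log2 scale (95% interval -0.07 to 0.49, adjusted p = 0.266, limma), and the value was 0.34 (adjusted p = 0.132) without control 2, 0.13 (adjusted p = 0.507) without control 1 and 0.15 (adjusted p = 0.487) without control 3. Zap70, the kinase that docks on phosphorylated CD3 chains (chromosome 1, 36761798 to 36782818), was at 1.32, 1.17 and 1.35 FPKM in the controls. The NE group ran from 0.805 to 1.62, median 1.43, and the brimonidine group from 0.917 to 1.71, median 1.05. Exposed libraries lay above and below the narrow control range. The log2 fold change of Zap70 for NE against control was 0.034 (95% interval -0.25 to 0.32, adjusted p = 0.875, limma), and -0.0022 without control 2.

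Of the genes of cytotoxic cells, Klrd1 had the highest ratio of the NE to the control mean, 1.53, which was also the highest of the 10 members. Klrd1, the CD94 chain of NK-cell receptors (chromosome 6, 129591782 to 129598775), was at 2.59, 2.01 and 1.84 FPKM in the controls. The NE group ran from 2.36 through 3.16 to 4.39, with 5 of 7 libraries above the highest control. The brimonidine group ran from 2.40 through 2.74 to 4.31, with 6 of 7 above it. The log2 fold change was 0.43 (standard error 0.17, 95% interval 0.07 to 0.80, unadjusted p = 0.0250, adjusted p = 0.103, limma), and the exact permutation p was 0.0417. The difference therefore missed the threshold once adjusted over all genes, and the adjusted p was 0.0485 with all 17 libraries in 1 limma model, in a range from 0.00704 to 0.459 over its alternatives. Gzma, granzyme A, a serine protease of killer-cell granules (chromosome 13, 113093825 to 113100981), was at 3.23, 2.36 and 2.53 FPKM in the controls. Its NE libraries ran from 2.84 through 3.18 to 5.42 and its brimonidine libraries from 1.78 through 3.38 to 4.76. The brimonidine range enclosed that of the controls, and NE exceeded control by 0.26 on the log2 scale (95% interval -0.08 to 0.61, adjusted p = 0.264, limma). Without NE 7, the highest NE library for Gzma, this was 0.17.

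Nkg7, a membrane protein of cytotoxic granules (chromosome 7, 43437073 to 43438249), was at 99.4, 26.1 and 81.6 FPKM in controls 1, 2 and 3. Its NE libraries ran from 82.0 through 87.1 to 118 and its brimonidine libraries from 84.5 through 95.4 to 109. Control 1 lay within the NE range, control 3 just under it and control 2 far below. The ratio of the NE and control means was 1.34 and the log2 fold change 0.61, with a wide interval from -0.11 to 1.33 (adjusted p = 0.217, limma). Without control 2 the log2 fold change was 0.026 (adjusted p = 0.943), and without control 1 it was 0.97 (adjusted p = 0.0546), both by limma. The difference in Nkg7 thus turned on 1 library, the one with the low neutrophil sum. The part of neutrophils and their precursors in it was not tested.

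Taking the comparison of noise with no noise across the members, 0 of the 9 fitted were called, that is, had an adjusted p under 0.05 over all genes and at least a 2-fold change. Of 15950 genes fitted, 5.76% were called. At an unadjusted p under 0.05, 2 of 9 members passed, Cd4 and Klrd1, against 32.9% of all genes, and with recovered fragments in limma voom 0 members and 1251 of 15895 genes were called. No member had groups that did not overlap, against 18.3% of all genes. All 9 log2 fold changes were above 0, with a median of 0.209 against -0.044 over all genes, and 7003 of the 15950 genes were above 0. Those of Cd3d, Cd3g, Cd8a and Zap70 each turned below 0 with 1 library left out, and that of Nkg7 was 0.026 without control 2. The members share their libraries, so the 9 directions are not independent of each other. Summed markers of some other blood cells were also higher in most NE libraries than in the controls, and those of others were not. The summed FPKM of 10 macrophage and monocyte markers was 375.0 to 637.3 in the controls, 642.0 to 824.7 in NE and 622.6 to 764.8 in brimonidine libraries, so that the controls and NE did not overlap. That of 8 mature B-cell markers was 49.2 to 66.6, 62.0 to 80.3 and 63.9 to 76.9. The median neutrophil sum was 43919.7 in the controls and 44016.8 in the NE group. For 6 megakaryocyte and platelet markers the medians were 511.0 and 456.8. NE 6 had the highest macrophage and mature B-cell sums of the NE group, and its lowest sum of the members other than Nkg7. The part of these cells in the differences of the members was not tested. The intervals of 8 members ended below 1 and so below a 2-fold rise on this scale, and that of Nkg7 reached 1.33.

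**Figure D2:**
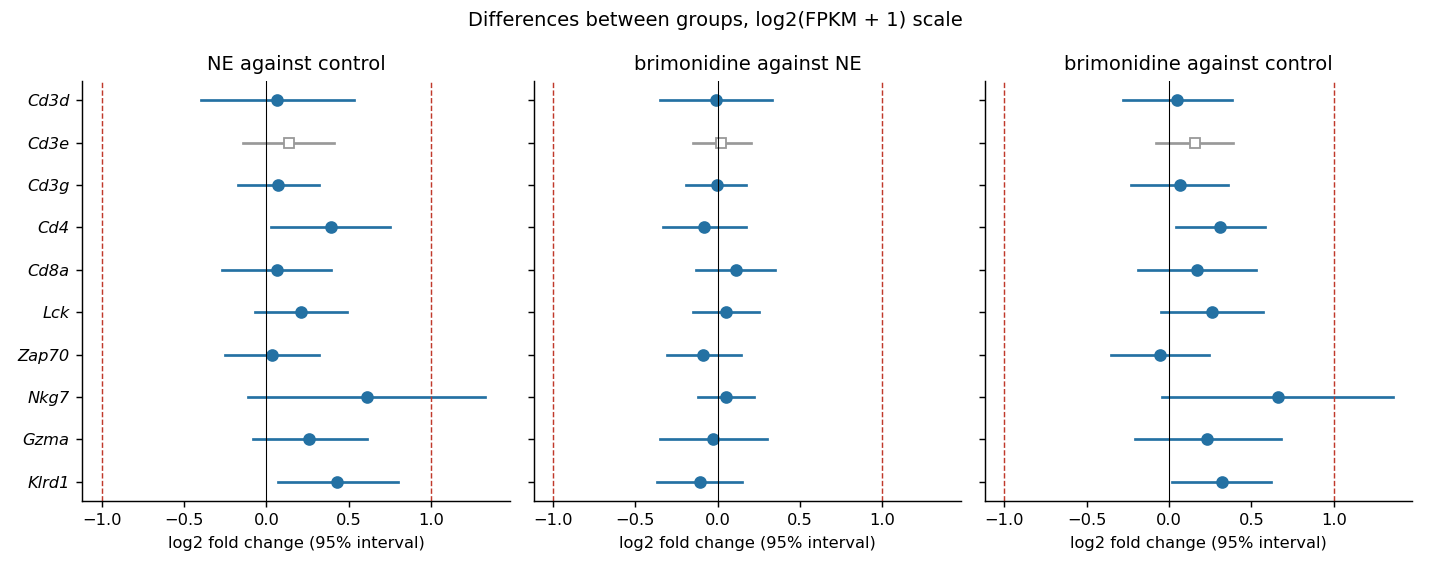
Log2 fold change (points) and 95% interval (lines) of each member in the 3 comparisons, on the log2(FPKM + 1) scale; dashed red lines mark a 2-fold difference and the grey square is Cd3e from a fit with no filter. For brimonidine against NE all 9 fitted points lie between -0.11 and 0.11, and against control Nkg7 has the widest interval.

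Brimonidine against NE, the comparison of treated with untreated mice after the same noise, gave differences within 0.11 of 0 on the log2 scale for every fitted member. The log2 fold changes of the 9 members lay between -0.11 for Klrd1 and 0.11 for Cd8a, and their adjusted p between 0.935 and 0.998 (limma). Both limits moved when 1 library was left out, Klrd1 to -0.052 without NE 7 and -0.18 without brimonidine 2, and Cd8a to 0.053 without brimonidine 1. The widest bounds of the 95% intervals were -0.37 and 0.35, so that differences beyond 1.29-fold in FPKM + 1 lay outside the interval of every fitted member. Klrd1 was at 2.95 ± 0.629 FPKM in the brimonidine group and 3.29 ± 0.822 in the NE group (SD, n = 7 each). Cd8a was at 1.21 ± 0.350 and 1.04 ± 0.258, and Nkg7 at 95.1 ± 7.46 and 92.4 ± 13.0 FPKM. In each case the difference was smaller than the SD of either group. Exact permutation tests over 3432 arrangements gave p from 0.338 to 0.951 over the 9 members, where 0.00058 is the smallest possible. None of the 9 was called, and 0% of 15707 genes were called with limma. At an unadjusted p under 0.05, 0 members and 5.77% of genes passed, and 0 members and 0.14% of genes had groups that did not overlap. The median log2 fold change was -0.011 over the members and 0.015 over all genes.

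Brimonidine against control, which uses the same 3 control libraries as NE against control, gave values of the same order. Cd4 had a log2 fold change of 0.31 (95% interval 0.04 to 0.58, unadjusted p = 0.0284, adjusted p = 0.101, limma), with an adjusted p of 0.0485 when scaled by the median ratio. Klrd1 had 0.32 (95% interval 0.02 to 0.62, unadjusted p = 0.0382, adjusted p = 0.119, limma), and Nkg7 had 0.66 (95% interval -0.04 to 1.36, adjusted p = 0.163, limma). For Nkg7 the value was again set by the controls, at 0.073 without control 2 and at 1.02 without control 1, where an adjusted p of 0.0352 made it a call, the sole member called under any alternative. Lck had 0.26, Gzma 0.23, Cd8a 0.17, Cd3g 0.065 and Cd3d 0.051, and Zap70 was the member below 0 at -0.053. Of these, Cd8a was at 0.027 without control 1, Cd3d at 0.0069 without brimonidine 7 and Cd3g at -0.026 without control 2. The direction of Zap70 turned with the scaling, to 0.0028 by the median ratio and 0.11 by quantiles. Of the 9 members 0 were called, against 5.73% of 15947 genes, and 2 passed an unadjusted p under 0.05, against 35.6%. None had groups that did not overlap, against 19.4%. The median log2 fold change was 0.233 over the members and -0.031 over all genes.

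The spread of the members between mice of a group is given here beside the spread that fragment counting alone would give. The coefficient of variation of Nkg7 was 14.1% in NE and 7.84% in brimonidine libraries, where counting alone gives 2.61% and 2.55%. For Cd4 it was 23.4% and 17.4%, against 6.81% and 7.08%. Cd3d varied most in the NE group, at 38.4% against 13.6%. Cd3g in the NE group, at 12.8% against 11.0%, was the closest to its counting error. Counting errors cover the sampling of fragments only.

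Several members were low in the same library. NE 6 was the lowest of the 7 NE libraries for 7 members, Cd3d, Cd3e, Cd3g, Cd4, Cd8a, Zap70 and Gzma, and the highest for Nkg7. The 9 members other than Nkg7 summed to 13.0 FPKM in NE 6 and to between 17.0 and 22.1 in the other NE libraries. NE 6 also had the highest neutrophil sum of the NE group. The highest neutrophil sum of the brimonidine group, 58439.3, was that of brimonidine 2. There the 9 members summed to 22.4 FPKM, the highest of that group. In the brimonidine group, brimonidine 4 was lowest for Cd3d, Zap70, Gzma and Klrd1, and brimonidine 5 for Cd3g, Cd4, Cd8a and Lck, with sums of 13.8 and 15.3 FPKM against 17.1 to 22.4 in the other 5. Without NE 6, the log2 fold changes of brimonidine against NE were -0.17 for Cd4 (adjusted p = 0.735, limma) and 0.11 for Nkg7 (adjusted p = 0.748, limma).

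Over the 14 exposed libraries, each value taken as its deviation from its group's mean log2(FPKM + 1), most pairs of members other than Nkg7 had a positive correlation, while all 9 pairs with Nkg7 were negative. Whether the pairs with Nkg7 differ from the others was not tested. The 36 pairs without Nkg7 had Pearson's r between -0.08 and 0.81 with a median of 0.41, and 34 were positive. Cd3e was the exception among them, with r between -0.08 and 0.06 in 5 of its 8 pairs (Cd3g, Cd4, Cd8a, Lck and Gzma). These 5 were positive within the NE group and negative within the brimonidine group. The 2 values were 0.73 and -0.82 with Cd8a, 0.41 and -0.69 with Cd4, and 0.29 and -0.49 with Lck. With Cd3g they were 0.15 and -0.12, and with Gzma 0.15 and -0.15. Pairs with Nkg7 ranged from -0.62, with Cd3e, to -0.05, with Gzma. Values of a library share its depth and its cell make-up, so the pairs are not independent of each other. Of the 45 pairs, 13 had an unadjusted permutation p under 0.05 for r and 0 did after adjustment over the 45. The highest was Lck with Cd8a, with r = 0.81 (permutation p = 0.00114, adjusted p = 0.0513) and Spearman's rho = 0.80 (permutation p = 0.00197, adjusted p = 0.0862). It was 0.68 without brimonidine 1 and brimonidine 5, the libraries farthest from the median, and 0.69 and 0.89 within the NE and brimonidine groups. Cd4 and Zap70 had r = 0.79 (permutation p = 0.00233, adjusted p = 0.0524) and rho = 0.68 (permutation p = 0.0120, adjusted p = 0.130), with r = 0.66 without NE 6 and brimonidine 5 and 0.89 and 0.70 within the groups. Lck and Cd3g had r = 0.76 (permutation p = 0.00514, adjusted p = 0.0771) and rho = 0.67 (permutation p = 0.0144, adjusted p = 0.130), with r = 0.69 without brimonidine 5 and brimonidine 7 and 0.58 and 0.84 within the groups.

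The neighbouring CD3 genes did not deviate more closely than these. Cd3d and Cd3g had r = 0.32 (permutation p = 0.224, adjusted p = 0.42) and rho = 0.49 (permutation p = 0.083, adjusted p = 0.236), with r = 0.21 without NE 6 and brimonidine 4 and 0.69 and 0.06 within the NE and brimonidine groups. The negative pairs of Nkg7 leaned on NE 6: without that library they ran from -0.37 to 0.14, with a median of -0.12 where it was -0.28 with it. The pairs without Nkg7 had a median of 0.29 without NE 6, with a range from -0.55 to 0.82. The lowest was Cd3e with Cd4, and without NE 6 the pairs of Cd3e with Cd8a, Lck and Cd3g were at -0.29, -0.23 and -0.18.

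**Figure D3:**
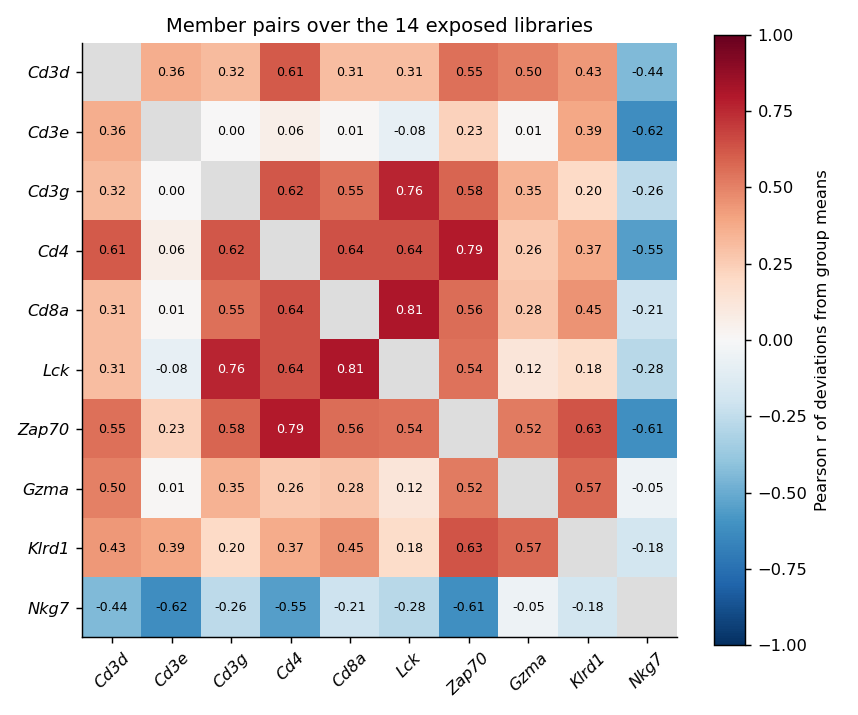
Pearson's r for each of the 45 member pairs over the 14 exposed libraries, as deviations from group means of log2(FPKM + 1); red is positive, blue negative and the diagonal grey. The Nkg7 row and column are negative throughout, and the highest value, 0.81, is that of Lck with Cd8a.

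Because Nkg7 stood apart in level, it was set against the 12 neutrophil markers. Elane, neutrophil elastase, and Mpo, myeloperoxidase, are proteins of the primary granules formed in neutrophil precursors, and they were singled out after their values were seen. Elane was at 1203 FPKM in control 1, 275.9 in control 2 and 898.3 in control 3, and ran from 987.0 to 1440.0 over the exposed libraries. It was low in the same control as Nkg7 and high in the same exposed libraries. Over the 14 exposed libraries Nkg7 and Elane had r = 0.94 (permutation p = 3e-05, adjusted over 12 tests p = 0.00036) and rho = 0.80 (permutation p = 0.0004, adjusted p = 0.0048). The r was 0.82 without NE 6 and brimonidine 3, and 0.96 and 0.94 within the NE and brimonidine groups. Nkg7 and Mpo had r = 0.83 (permutation p = 0.00078, adjusted p = 0.00468) and rho = 0.76 (permutation p = 0.0021, adjusted p = 0.0126), with r = 0.58 without the same libraries and 0.91 and 0.71 within the groups. The other 10 markers had adjusted p values of 0.05 or more for r. Over the 12 markers r ran from -0.31 to 0.94 with a median of 0.51. The source of Nkg7 among the cells of the tissue was not tested.

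**Figure D4:**
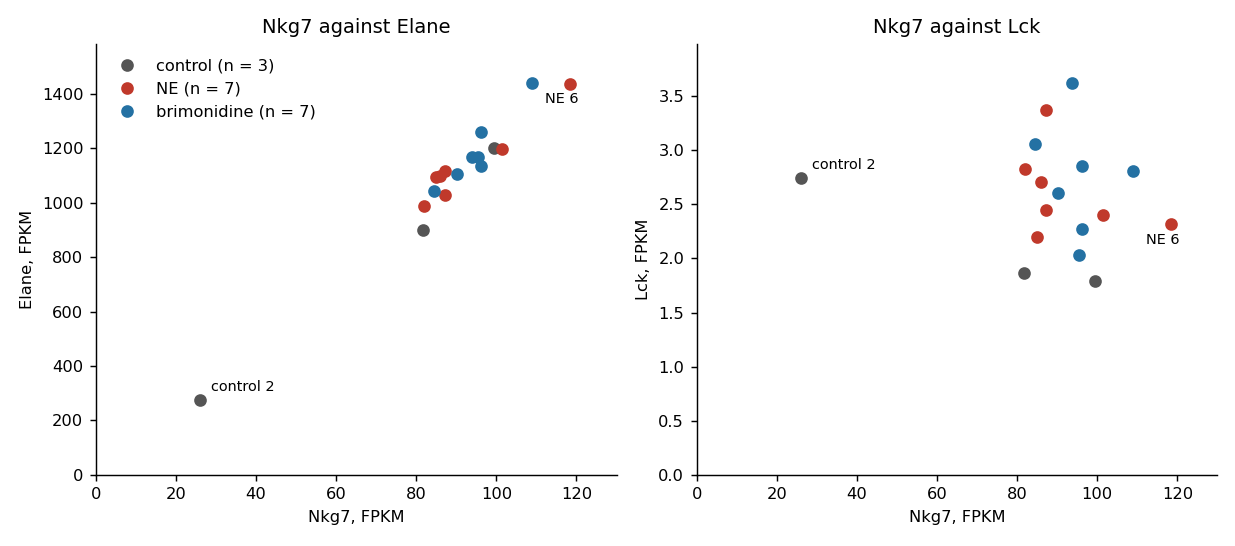
FPKM of Elane (left) and of Lck (right) against FPKM of Nkg7 in control (grey), NE (red) and brimonidine (blue) libraries, linear axes from 0. Elane and Nkg7 are low and high in the same libraries, from control 2 at 275.9 and 26.1 FPKM to NE 6, while Lck in control 2, at 2.74 FPKM, lies within the range of the exposed libraries.

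Of genes outside all lists, 14502 with a mean of at least 1 FPKM in the exposed libraries were ranked by how closely they followed the mean deviation of the 10 members. The 5 closest by Pearson's r over the 14 libraries were Ms4a4b (r = 0.87, rho = 0.80), BC025446 (0.87 and 0.85), Bmt2 (0.86 and 0.77), Rell1 (0.85 and 0.75) and 9230112E08Rik (0.85 and 0.82). They are the top of a long ranking and are given as a description. Ms4a4b, a membrane protein of T cells, was at 1.47 ± 0.283 FPKM in the controls (SD, n = 3), 2.11 ± 0.304 after noise alone and 2.32 ± 0.337 with brimonidine (n = 7 each).

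The other T-cell and NK-cell genes were counted in the same way. Of 70 listed in 7 roles, 67 were in the table and 40 passed the filter for NE against control. Of these 0 were called higher and 2 lower, 5.00% against the 5.76% of all genes. The median log2 fold change was 0.207. Among the 40, Eomes, Crtam, Cd28 and Prf1 passed the filter through 1 group alone, so that the filter helped to set their direction. Of the other 36, 0 were called, against 4.13% of all genes chosen likewise, and 7 passed an unadjusted p under 0.05, 19.4% against 31.3%. Of the 36, 30 were above 0, 83.3% against 44.2%, with a median of 0.207 as well. For brimonidine against NE 0 of 38 were called, 3 had an unadjusted p under 0.05, 7.89% against 5.77% of all genes, and the median was -0.040. For brimonidine against control, with the same controls, 2 of 39 were called, both lower, 5.13% against 5.73% of all genes, and the median was 0.182. The genes called lower were Eomes and Crtam in each case, and nothing is read from that count. Without the 3 genes that passed through 1 group alone, Eomes, Crtam and Cd28, 0 of 36 were called, against 4.69% of all genes chosen likewise.

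Trac and Trbc2, constant regions of the T-cell receptor chains, had the highest means of the receptor genes over all 17 libraries, with Trbc1 between them in the controls at 4.10 FPKM. Trac averaged 3.34 FPKM in the controls, 4.58 after noise alone and 4.53 with brimonidine; NE exceeded control by 0.34 on the log2 scale (adjusted p = 0.206, limma), or by 0.22 without control 3. Trbc2 was at 4.86, 5.60 and 5.41 FPKM in the same order (log2 fold change 0.19, adjusted p = 0.542, limma), and the value was -0.07 without control 3. Trdc, the delta constant region, did not exceed 0.436 FPKM. Of the costimulatory genes, Lag3, an inhibitory receptor, was at 2.29, 3.37 and 3.08 FPKM, and Cd226, an activating receptor that platelets also carry, at 5.97, 5.10 and 6.17. Neither difference of NE from control passed the test, with adjusted p values of 0.187 and 0.666 (limma).

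The adaptors Lcp2, which myeloid cells also use, and Ubash3a were at 23.2 and 4.46 FPKM in the controls and at 28.6 and 6.08 in the NE group. Their log2 fold changes were 0.36 (adjusted p = 0.193) and 0.43 (adjusted p = 0.120), both by limma. Both turned on control 2, being 0.03 and 0.16 without it, and without control 1 Ubash3a was at 0.68 (adjusted p = 0.0131, limma). The receptor chains Il2rb and Il18r1 were at 4.05 and 5.29 FPKM in the controls and 6.58 and 5.66 in the NE group, with log2 fold changes of 0.59 and 0.19 and adjusted p values of 0.0989 and 0.591 (limma). Without control 1 Il2rb was at 0.79 (adjusted p = 0.0402, limma), and without control 2 Il18r1 was at -0.22. Ccl5, a chemokine of activated T and NK cells, was at 9.00, 13.6 and 11.3 FPKM in the control, NE and brimonidine groups, and NE exceeded control by 0.50 on the log2 scale (adjusted p = 0.143, limma). Ctsw, a protease of cytotoxic cells, was at 3.47, 4.07 and 3.81 FPKM. The NK-cell receptors were sparse, 3 of 14 passing the filter. Cd244, also found on myeloid cells, was at 4.43, 5.37 and 5.51 FPKM and Klrc1, the NKG2A partner of Klrd1, at 0.934, 1.33 and 1.40. For Cd244 the log2 fold change of 0.39 (adjusted p = 0.354, limma) was -0.10 without control 2. Ncr1, a receptor that defines NK cells, reached at most 1.03 FPKM. The transcription factors Tcf7 and Zbtb7b were at 5.96 and 24.1 FPKM in the controls and 5.37 and 26.2 in the NE group. Their log2 fold changes of -0.10 and 0.18 changed sign without control 2, to 0.12 and -0.12, as did that of Cd226, from -0.15 to 0.11.

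The 2 genes called lower were Eomes and Crtam. Eomes, a T-box factor of NK and CD8 T cells that also marks neuron classes of the cortex and cerebellum, was at 1.03, 4.31 and 1.15 FPKM in controls 1, 2 and 3. NE libraries lay between 0.137 and 0.426 and brimonidine libraries between 0.116 and 0.514. Crtam, an adhesion molecule of activated cytotoxic cells that is also known from neurons, was at 1.85, 4.10 and 1.98 FPKM in the controls. In the NE group it was between 0.154 and 0.346, and in the brimonidine group between 0.193 and 0.954, with brimonidine 5 the highest. All 3 controls lay above all exposed libraries for both genes. On the log2(FPKM + 1) scale the NE group differed from control by -1.20 for Eomes and -1.51 for Crtam, and the brimonidine group by -1.14 and -1.43. Both genes passed the filter through the 3 controls alone, so these differences are a description with no test, and leaving out any control removed them from the fit. The sum of central-neuron markers was highest in control 2 as well. Among exposed libraries it was highest in brimonidine 5, at 106.3, and at most 48.6 in the NE group. Its part in the levels of Eomes and Crtam was not tested.

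**Figure D5:**
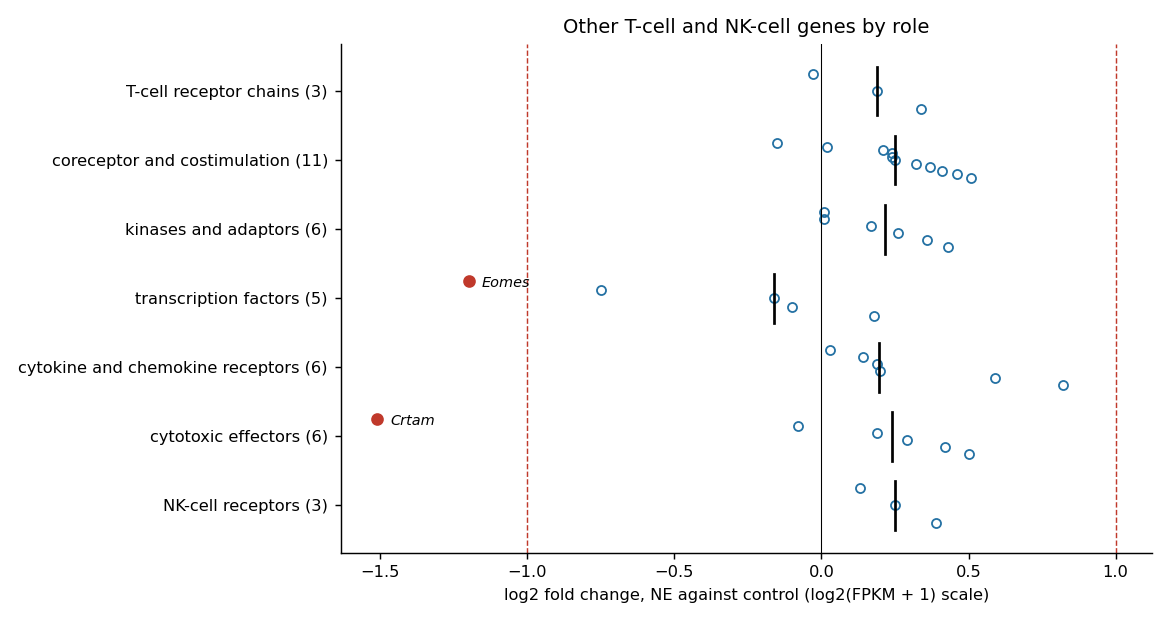
Log2 fold change of NE against control for the 40 other T-cell and NK-cell genes fitted, by role (number fitted in brackets), on the log2(FPKM + 1) scale; black bars are medians, dashed lines a 2-fold difference and filled red points genes called. The medians of 6 roles lie between 0.19 and 0.25, that of the transcription factors is -0.16, and Eomes and Crtam are the genes called.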

How the data were processed

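Male WT C57BL/6J cochlear RNA was extracted with TRIzol, and TruSeq stranded mRNA libraries were sequenced. The submitters' processing notes name Trimmomatic, HISAT2, Cufflinks and HTSeq and the build mm10; versions are not given in the sources used here. The authors deposited FPKM values, normalized by gene length and library size, and no counts were among the files used. Groups followed the labels, which name no batch. The members and all gene lists were chosen with earlier results of these data known.

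Differences were fitted with limma 3.58.1 (R 4.3.3) on log2(FPKM + 1) with an intensity trend, between the 2 groups compared, over genes with at least 1 FPKM in at least 3 of their libraries. The adjustment (Benjamini-Hochberg) covered all genes fitted, and calls needed an adjusted p under 0.05 and a 2-fold change. The pseudocount understates changes of low genes. The study's own count model was not run, since the values are FPKM. The script was tested on simulated data. Members, called genes and the 2 most abundant genes of each role were named, with the 5 genes most like the members. Relations used 100000 permutations within groups, two-sided.

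Depth was recovered from the FPKM steps and merged GENCODE M21 exon lengths. By these lengths 91.33% of values, and all values of the 10 members, were whole fragments within a narrow margin. With lengths solved for other genes where possible, 99.84% of genes above 0 were whole within 0.05 fragments in every library. Alternatives were 3 other scalings, another pseudocount and filters, 1 model for all 17 libraries, array weights, robust variances, a replicate block, recovered fragments with voom and each library left out. Counts over the other T-cell and NK-cell genes under these were added after seeing the data. Same-numbered libraries of different groups had correlations of deviations between -0.23 and 0.08, so the numbers were not treated as pairs. Proteins were not analysed here.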

Additional observations from a re-analysis of the deposited data

Results flagged for a closer look

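In groups of 7 a library was marked where its gap to the nearest other library, over the group's range, exceeded Dixon's 95% critical value of 0.568. Of the 20 groups tested, 10 members in the NE and brimonidine groups, 2 were marked, and chance marks about 1 in 20. Gzma was at 5.42 FPKM in NE 7, the highest of the NE group, with a gap of 0.65 of the range. Klrd1 was at 4.31 FPKM in brimonidine 2, the highest of the brimonidine group, with a gap of 0.659. Both genes are of cytotoxic cells, and NE 7 was also the highest NE library for Klrd1 and brimonidine 2 the highest brimonidine library for Gzma.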

How the results depend on the processing

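The 9 fitted members gave 0 calls in all 3 comparisons under every alternative, except 1 for brimonidine against control without control replicate 1, which was Nkg7 (range 0 to 1 over libraries left out). Over 603 alternative log2 fold changes of members, 578 kept their direction and stayed uncalled, 24 turned and 1 became a call. Of the 3 other scalings, the median ratio and quantiles moved the median of all genes by 0.102 and 0.106 for NE against control. Quantiles moved it by 0.102 for brimonidine against control. For NE against control, quantiles lowered Nkg7 from 0.61 to 0.51 and raised every other fitted member. Cd4 went from 0.39 to 0.62, Cd3d from 0.062 to 0.26, Cd8a from 0.062 to 0.28 and Zap70 from 0.034 to 0.21. Nkg7 moved further with array weights, to 0.12 (adjusted p = 0.416, limma). With quantiles or array weights Cd4, Klrd1 and Lck had adjusted p values between 0.00139 and 0.0325 (limma) in both comparisons with control, each at under 2-fold. Past 0.05 without being called were also Klrd1 for NE against control with all 17 libraries in 1 model and Cd4 for brimonidine against control by the median ratio (adjusted p = 0.0485 each, limma), and Cd4 for NE against control without NE 6.

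The values that turned were near 0. Under other settings, for brimonidine against NE, Cd3d was 0.0091 with a pseudocount of 0.1 and Cd3g 0.0064 with equal totals. Zap70 for brimonidine against control was 0.0028 by the median ratio, 0.11 by quantiles and 0.026 with the replicate block. With 1 library left out, NE against control ranged from -0.011 to 0.18 for Cd3d, -0.019 to 0.17 for Cd3g, -0.082 to 0.15 for Cd8a and -0.0022 to 0.095 for Zap70. Brimonidine against NE ranged from -0.13 to 0.062 for Cd3d, -0.051 to 0.044 for Cd3g, -0.0017 to 0.099 for Lck and -0.097 to 0.078 for Gzma. Brimonidine against control ranged from -0.026 to 0.16 for Cd3g. The cause was not tested.

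Of the other T-cell and NK-cell genes, 2 were called against control in each exposed group. For NE this was 1 with equal totals or quantiles and 0 to 2 with a library left out, and for brimonidine 1 with equal totals, quantiles or array weights and 0 to 2 with a library left out, Eomes and Crtam leaving the fit with any control. Cxcr3, a chemokine receptor, was called higher for NE against control without control 1 (1.14, adjusted p = 0.0413, limma) and, beside Crtam and in place of Eomes, with array weights (1.07, adjusted p = 0.00384), where it was 0.82 (adjusted p = 0.116) as reported. Over all genes, NE against control gave 918 calls, 2247 with no minimum fold and 368 (without control 2) to 934 with a library left out. Brimonidine against control gave 913, 2518 with no minimum fold and 468 (without control 2) to 1080 with a library left out. Brimonidine against NE gave 0, 1 with array weights, 1 with no minimum fold and 16 at an unadjusted p under 0.05.

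With the replicate number as a block, 0 genes and 0 other T-cell and NK-cell genes were called for NE against control, 236 and 0 for brimonidine against control, and 0 members in each. The numbers do not pair the samples, and in the comparisons with control this fit uses the 3 shared numbers. Depth limits the low members, with as few as 18 fragments of Cd3d in a library, and 3 controls limit both comparisons with control.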
